A study of Mus musculus with 6 samples.

Results

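The genes described here encode the lower steps of glycolysis and the export of lactate. They were listed by name and function, from phosphoglycerate kinase to the lactate carriers, by a rule that uses no measured value, but the list was drawn up with earlier results of these data known. The 10 genes, Pgk1, Pgam1, Eno1, Eno2, Pkm, Ldha, Ldhb, Slc16a1, Slc16a3 and Pdk1, are 10 of 52143 genes in the deposited table, and 10 of 10 passed the filter on low counts. RNA was measured in mouse rod photoreceptors on postnatal day 10, in 3 libraries labelled Jun knockdown and 3 control libraries. In both groups, plasmids were electroporated into the retina of living newborn mice on postnatal day 0, and cells positive for EGFP were flow-sorted on day 10. The Jun knockdown group received a vector that expresses a short hairpin RNA (shRNA) against Jun, and the control group a pLKO.1 vector with a scrambled shRNA, each as 0.4 µl at 2.5 µg/µl. Both groups also received Nrlp-EGFP, a vector with EGFP under the promoter of the rod factor gene Nrl, at 1.5 µg/µl. The label of a rod therefore depends on activity of that promoter, the genotype field names only the plasmid, and the labels do not say which mice or litters went into a library. Differences between replicates may therefore be technical, and p-values measure only the spread between these libraries.

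In glycolysis, glucose carbon passes from phosphoglycerates through enolase and pyruvate kinase to pyruvate, with ATP made by phosphoglycerate kinase and by pyruvate kinase. Pyruvate then either enters mitochondria through the pyruvate dehydrogenase complex or is reduced to lactate by lactate dehydrogenase and leaves the cell through monocarboxylate carriers. Photoreceptors are known for aerobic glycolysis: they turn much of their glucose into lactate in the presence of oxygen, and lactate from the outer retina can be used by neighbouring cells.

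Jun, the target of the shRNA and a DNA-binding subunit of AP-1, stood at 1.84, 17.6 and 19.3 CPM (counts scaled to a common library total and by TMM) in the libraries labelled Jun knockdown, against 6.47, 5.85 and 7.16 CPM in control libraries. It was below the control libraries in knockdown replicate 1 and above them in replicates 2 and 3 (log2 fold change 0.99, SE 1.44, adjusted p = 0.764, edgeR quasi-likelihood test). The label is therefore kept as a label throughout. The libraries labelled Jun knockdown held 13211279 to 13998395 counts and the control libraries 32150086 to 105800769, so depth and group cannot be told apart. Spearman correlations between libraries were 0.613 to 0.637 within the labelled group, 0.694 to 0.757 within controls and 0.508 to 0.559 between groups. Transcripts with a retained intron took 8.49% ± 0.990 of the counts of protein-coding genes in the libraries labelled Jun knockdown and 3.23% ± 0.406 in controls (SD, n = 3 each, exact permutation p = 0.1, two-sided, the smallest that 3 against 3 can give). The summed level of 14 rod markers was 34810 to 53370 CPM in the labelled libraries and 144400 to 153700 CPM in controls, and 10 of 14 were lower past the threshold (9 with DESeq2 and 3 with limma-voom). Of all genes, 1.35% were lower with edgeR, 1046 of 12023 with DESeq2 and 315 of 12815 with limma-voom. Gngt1, a rod transducin subunit named here after its values were seen, made up more than any other marker of the sum in the labelled libraries, at 31308, 18331 and 33263 CPM there and at 20419, 6894 and 13854 CPM in controls. It did not pass, with a log2 fold change of 1.01 (SE 0.36, adjusted p = 0.204). Without Gngt1, a check added after the data were seen, the summed level of the other 13 was 16480 to 22060 CPM in the labelled libraries and 130600 to 146800 CPM in controls, a log2 difference of -2.86, against -1.72 with all 14.

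At an adjusted p under 0.05, 5 of the 10 genes passed as lower in the libraries labelled Jun knockdown, and 0 as higher, with 0 higher also by limma-voom and DESeq2. The 5 were Pgk1, Pgam1, Eno1, Pkm and Ldha, that is, 1 gene for each step between 1,3-bisphosphoglycerate and lactate. Over all genes tested, 1.35% were called lower and 0.32% higher, 1.67% in all. All 10 fold changes were negative, with a median of -2.47 on the log2 scale, against 52.1% negative and a median of -0.12 over all genes tested. The groups did not overlap for 7 of the 10 genes, the 5 called genes with Eno2 and Ldhb, all lower in the labelled libraries, as for 15.7% of all genes tested. The calls of Pgam1 and Pkm ended when any 1 library was left out and that of Eno1 without any 1 control, and the 5 calls became 3 when counts were scaled to the upper quartile or to library totals. Together the 10 genes took 0.121%, 0.190% and 0.139% of all counts in the labelled libraries, against 0.930%, 1.605% and 1.23% in controls. In bulk samples such as these, fewer cells of a type and less RNA per cell cannot be told apart. Summed microglia, Müller glia and vascular markers were also lower in all 3 labelled libraries. Of the tested markers, however, 4 of 13 for Müller glia and 1 of 7 for vessels and blood had a positive fold change.

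**Figure D1:**
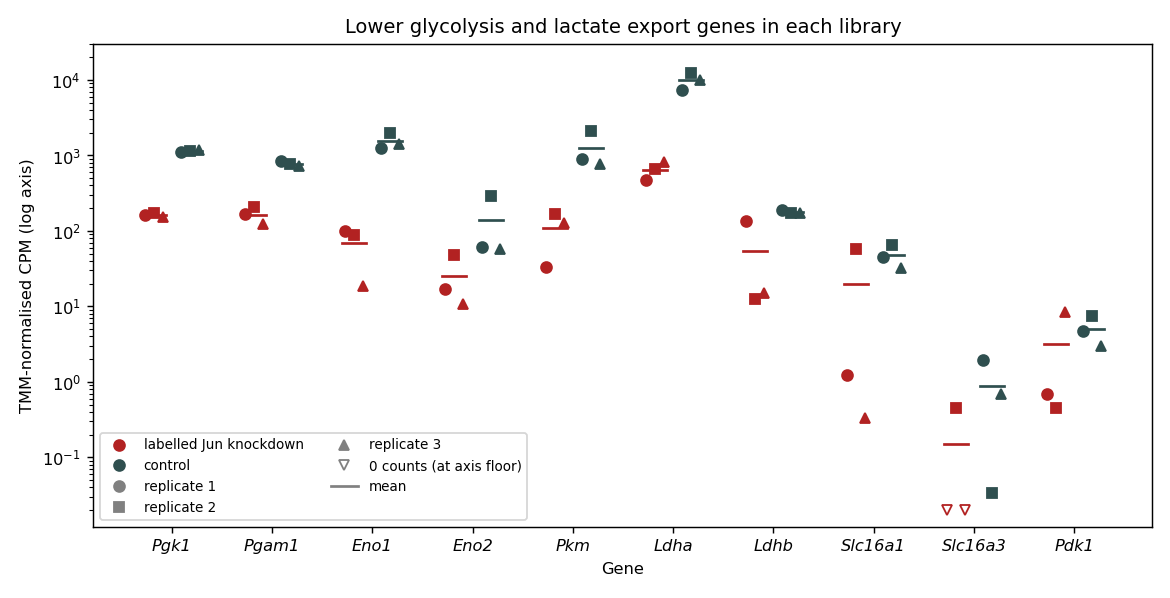
Level of each of the 10 genes in each library, as TMM-normalised CPM on a log axis, with the libraries labelled Jun knockdown (red) left of the controls (dark) for each gene, and lines at the group means. The groups are apart for Pgk1 to Ldhb and overlap for Slc16a1, Slc16a3 and Pdk1, and Slc16a3 had 0 counts in 2 labelled libraries.

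Over the 6 libraries, Pgk1, Pgam1 and Ldha were closest to the mean profile of the 10 genes. After each gene was centred on its own mean log2 CPM, Pgk1 lay 0.34 (root mean square, log2) from the mean profile of the 10 genes, Pgam1 0.42 and Ldha 0.66. Slc16a1, Pdk1 and Slc16a3 lay farthest, at 1.89, 1.71 and 1.60. Among 10228 other genes, those nearest to the mean profile were Rab3a at 0.17, Ppp4c at 0.19, Cplx4 at 0.23, Tmem134 at 0.25 and Hist2h2aa1 at 0.27, over 6 libraries. The log2 fold changes of these 5 genes lay between -3.09 (Cplx4) and -2.73 (Ppp4c). They were picked by this distance over the same libraries, so fold changes of about this size follow from the choice. Of the 5, Cplx4 alone passed (adjusted p = 0.00714, edgeR).

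Of the 5 called genes, the promoters of the 3 with the motif ACGTG are shown. They were picked by that motif alone, which is not the AP-1 site of the target of the shRNA. Each sequence is the 250 bases before a start listed in the RefSeq table for GRCm38.p6, the listed one nearest to the start of the gene's main annotated transcript, 5′ to 3′ on the gene's strand, with capitals for matches to TGANTCA (the AP-1 site), TGACGTCA (the CRE, bound by CREB, ATF and some Jun dimers), ACGTG (the core of the hypoxia response element) or CACGTG (the E-box). The regions are chr7:46845554-46845803 (+) for Ldha, chrX:106186850-106187099 (+) for Pgk1 and chr19:41911621-41911870 (+) for Pgam1.
Ldha: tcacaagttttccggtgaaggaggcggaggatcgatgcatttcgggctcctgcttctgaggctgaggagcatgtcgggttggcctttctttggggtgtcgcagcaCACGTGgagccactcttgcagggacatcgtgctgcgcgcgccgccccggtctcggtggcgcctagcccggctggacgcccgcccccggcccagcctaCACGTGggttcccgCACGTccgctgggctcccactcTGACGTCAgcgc
Pgk1: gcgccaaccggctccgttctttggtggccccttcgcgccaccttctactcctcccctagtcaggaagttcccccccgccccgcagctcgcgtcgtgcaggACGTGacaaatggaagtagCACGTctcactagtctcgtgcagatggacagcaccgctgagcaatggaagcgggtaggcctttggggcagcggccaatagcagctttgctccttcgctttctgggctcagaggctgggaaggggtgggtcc
Pgam1: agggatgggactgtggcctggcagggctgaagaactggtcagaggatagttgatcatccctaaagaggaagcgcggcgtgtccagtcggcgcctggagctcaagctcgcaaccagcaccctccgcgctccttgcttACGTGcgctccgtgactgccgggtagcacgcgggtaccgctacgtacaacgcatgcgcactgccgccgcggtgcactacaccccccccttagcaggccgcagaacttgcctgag
Both strands were searched, and each CACGTG also counts as an ACGTG on both strands. These starts lie 0 bases from that of the main transcript for Pgk1, 52 for Pgam1 and 35 for Ldha, for which 2 are listed, and 587, 244 and 208 bases from it for Slc16a3, Eno1 and Pkm. The Ldha promoter held a TGACGTCA 12 bases before its RefSeq start, with 5 matches to ACGTG, 4 of them within its 2 E-boxes. Of the 10 genes, 1 held TGACGTCA, against 1.55% of 32851 RefSeq promoters. Matches to ACGTG were found in 5, Pgk1, Pgam1, Ldha, Slc16a1 and Slc16a3, against 16.6% of promoters, and CACGTG in 2, Ldha and Slc16a1, against 6.02%. TGANTCA was found in 0 of 10 (6.75% of promoters), and TAATCC, a site of the photoreceptor factors CRX and OTX2, in 0 of 10 (6.25%). The genes with ACGTG include Slc16a1 and Slc16a3, whose groups overlapped, and of the called genes Eno1 and Pkm had none in this window. GGGCGG, a GC-box, was found in 6 of 10 (32.7%) and TATAAA in 1 of 10 (12.4%). The shares over all promoters were not matched for GC content, and the windows shown hold 67.2% (Ldha), 62.8% (Pgk1) and 64.0% GC (Pgam1). These matches describe letters in a window, and binding was not measured here.

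Phosphoglycerate kinase, encoded by Pgk1 (chromosome X, 106187100 to 106203699, plus strand, GRCm38), makes ATP from 1,3-bisphosphoglycerate. Pgk1 stood at 165, 174 and 152 CPM in the libraries labelled Jun knockdown, against 1123, 1135 and 1198 CPM in controls. The groups were far apart and each was tight, with means of 164 ± 11.4 CPM in the labelled libraries and 1152 ± 40.3 CPM in controls (SD, n = 3 each). Pgk1 was 7.03-fold lower by these means, with a log2 fold change of -2.81 (SE 0.32, adjusted p = 0.00525). It was the only one of the 10 genes past the threshold in all 17 alternatives, and leaving out any 1 library gave an adjusted p of 0.0202 to 0.0426. Its processed copies on chromosomes 3 and 12, 100% identical over the coding sequence, had 0 counts.

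Phosphoglycerate mutase, encoded by Pgam1 (chromosome 19, 41911871 to 41918664, plus strand), moves the phosphate of 3-phosphoglycerate to make 2-phosphoglycerate. Pgam1 stood at 168, 204 and 122 CPM in the libraries labelled Jun knockdown, against 835, 764 and 735 CPM in controls. The groups did not overlap, with a log2 fold change of -2.24 (SE 0.38, adjusted p = 0.0275). The call did not hold with any 1 library left out (adjusted p 0.0552 to 0.124), with upper quartile scaling (0.0593) or with library totals (0.0676). Pgam1-ps2, a processed pseudogene with an identical coding sequence, had 0 counts in all 3 labelled libraries and 0, 6020 and 913 counts in controls, 5.43% of the Pgam1 counts over all libraries, so reads may be split between them.

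Enolase turns 2-phosphoglycerate into phosphoenolpyruvate. Eno1 (chromosome 4, 150236721 to 150248879, plus strand), the broadly expressed form, stood at 101, 88.8 and 18.4 CPM in the libraries labelled Jun knockdown, against 1259, 1978 and 1412 CPM in controls. Its log2 fold change of -4.48 was the largest in size of the 10 genes (SE 0.64, adjusted p = 0.0133), and knockdown replicate 3 was the lowest library. The call was lost with limma-voom (adjusted p = 0.0679) and without control replicate 1, 2 or 3 (adjusted p = 0.0675, 0.0652 and 0.0719). The Eno1 value is uncertain, because Eno1b, a protein-coding gene on chromosome 18 that is 99.4% identical over the coding sequence, held 61.5% as many counts, and Gm4735, a processed pseudogene at 99.6%, held 19.0%. Eno1b was at 44.9, 47.8 and 7.85 CPM in the labelled libraries and at 726, 1230 and 901 CPM in controls, with a log2 fold change of -4.83 (SE 0.72, adjusted p = 0.0155). Gm4735 differed by -4.60 (SE 1.21, adjusted p = 0.0909). In a check added after the data were seen, counts of Eno1 summed with Eno1b, Gm4735 and Gm5855 gave a log2 fold change of -4.61 (adjusted p = 0.0129).

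Eno2 (chromosome 6, 124760053 to 124769673, minus strand), the enolase typical of neurons, stood at 17.0, 47.4 and 10.9 CPM in the libraries labelled Jun knockdown, against 61.9, 294 and 58.4 CPM in controls. The groups did not overlap, but control replicate 2 was several times above the other controls, and Eno2 did not pass (log2 fold change -2.46, SE 1.00, adjusted p = 0.262). Without control replicate 2 the fold change was -1.25 (adjusted p = 0.687). Its coding sequence matches that of Eno1 at 76.3% of aligned positions. The annotated forms of Eno2 also differed between libraries. Eno2-201 had 0, 0 and 12 counts in the labelled libraries and 2157, 25823 and 0 in controls, while Eno2-202 had 256, 965 and 173 counts in the labelled libraries and 392, 2131 and 997 in controls. Eno2-201 thus had 12 counts or fewer in 4 of 6 libraries, among them control replicate 3, and neither form passed (adjusted p = 0.239 and 0.999).

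Pyruvate kinase makes pyruvate and ATP from phosphoenolpyruvate. Pkm (chromosome 9, 59656368 to 59679375, plus strand) stood at 33.1, 169 and 129 CPM in the libraries labelled Jun knockdown, against 884, 2127 and 766 CPM in controls. All labelled libraries were below all controls, with the lowest value in knockdown replicate 1 and the highest in control replicate 2 (log2 fold change -3.51, SE 0.68, adjusted p = 0.0431). The call passed in 7 of 17 alternatives and with 0 of 6 libraries left out (adjusted p 0.0623 to 0.158), and with limma-voom the adjusted p was 0.203. A predicted gene, Gm49759, overlaps Pkm on the same strand, so reads may be split between them.

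Pkm RNA is spliced to hold either of 2 alternative exons, which give the M1 form, known from muscle and brain, and the M2 form, known from proliferating cells and photoreceptors. The 2 exons are shown because they hold the alternative coding sequence. The annotated transcripts differ elsewhere too, since the M2 transcript, of 2432 bases, has 558 bases that the M1 transcript, of 2041 bases, lacks, and the counts below are estimates for whole transcripts. Each is 167 bases, at chr9:59675029-59675195 (+) for M1 and chr9:59675568-59675734 (+) for M2 (GRCm38, GENCODE transcripts), and capitals mark the positions that differ. The exons match at 103 positions (61.7%).
M1 exon: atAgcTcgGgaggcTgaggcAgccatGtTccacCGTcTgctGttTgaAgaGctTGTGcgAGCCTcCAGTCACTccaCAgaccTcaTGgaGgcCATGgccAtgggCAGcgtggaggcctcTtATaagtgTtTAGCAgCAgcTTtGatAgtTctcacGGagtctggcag
M2 exon: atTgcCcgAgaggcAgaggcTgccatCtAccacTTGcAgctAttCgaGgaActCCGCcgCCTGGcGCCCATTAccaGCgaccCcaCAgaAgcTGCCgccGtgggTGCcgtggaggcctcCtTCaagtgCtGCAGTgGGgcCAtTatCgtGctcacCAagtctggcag
The M2 transcript, Pkm-201, had 554, 2423 and 1539 counts in the libraries labelled Jun knockdown, against 26814, 182602 and 22124 in controls. The M1 transcript, Pkm-202, had 2, 0 and 2 counts in the labelled libraries, against 1700, 23504 and 1264 in controls. M2 was the main form in all 6 libraries, and M1 was at or near 0 in the labelled ones. M1 took 0.360% of the counts of both forms in knockdown replicate 1 (95% Clopper-Pearson interval 0.0436 to 1.29), 0% in replicate 2 (0 to 0.152, for 0 of 2423) and 0.130% in replicate 3 (0.0157 to 0.468). In controls it took 5.96% (5.69 to 6.24), 11.4% (11.3 to 11.5) and 5.40% (5.12 to 5.70). The intervals cover counting error only and are approximate, since the counts are estimates. Per length, the M2 share was 99.8% ± 0.256 in the labelled libraries and 91.1% ± 3.83 in controls (SD, n = 3 each), a difference of 8.67 percentage points. All labelled libraries were above all controls (exact permutation p = 0.1, two-sided, the smallest possible). In the test over 20706 transcripts Pkm-201 had a log2 fold change of -4.01 (SE 0.69, adjusted p = 0.0581), and Pkm-202 had an adjusted p of 0.0583, so neither form passed.

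**Figure D2:**
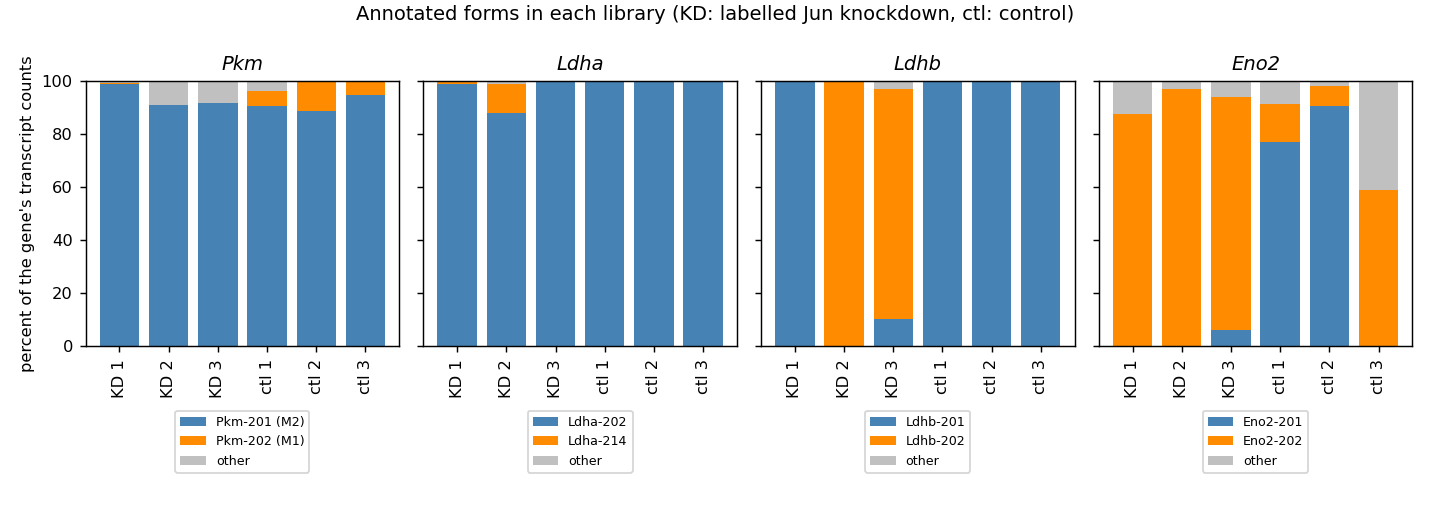
Percent of each gene's transcript counts in its main annotated forms, for Pkm, Ldha, Ldhb and Eno2, in the 3 libraries labelled Jun knockdown (KD) and the 3 controls (ctl). The Pkm M1 band is visible in controls only, and Ldhb in knockdown replicates 2 and 3 and Eno2 in all 3 labelled libraries lack most of the form that dominates control replicates 1 and 2; bars for Ldhb in those libraries rest on 63 and 67 counts.

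Lactate dehydrogenase interconverts pyruvate and lactate. Ldha (chromosome 7, 46841475 to 46855627, plus strand) encodes the subunit known for reducing pyruvate to lactate, and it was the most abundant of the 10 genes. Ldha stood at 467, 670.5 and 815 CPM in the libraries labelled Jun knockdown, against 7386, 12313 and 9867 CPM in controls. The groups were far apart, with means of 651 ± 175 CPM in the labelled libraries and 9855 ± 2463 CPM in controls (SD, n = 3 each). Ldha was 15.1-fold lower by these means, with a log2 fold change of -3.92 (SE 0.29, adjusted p = 0.000727), and 16 of 17 alternatives kept the call. With limma-voom the fold change was -4.09 and the adjusted p 0.344, and with 1 library left out the adjusted p was 0.00177 to 0.0146. Ldha-202 carried 95.1% of the gene's transcript counts in the labelled libraries and 99.7% in controls. A second coding form, Ldha-214, had 40, 1410 and 0 counts in the labelled libraries and 27, 171 and 16 in controls, so that it was high in knockdown replicate 2 alone.

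Ldhb (chromosome 6, 142490249 to 142507957, minus strand) encodes the other main subunit, known for favouring lactate as a substrate; its coding sequence matches that of Ldha at 73.2% of aligned positions. Ldhb stood at 133, 12.5 and 15.0 CPM in the libraries labelled Jun knockdown, against 191, 175 and 172 CPM in controls. All labelled libraries were below all controls, but knockdown replicate 1 was near them, and Ldhb did not pass (log2 fold change -1.74, SE 0.97, adjusted p = 0.394). Without knockdown replicate 1 the fold change was -3.73 (adjusted p = 0.0846). The full-length form Ldhb-201 had 2434, 0 and 7 counts in the labelled libraries, against 8077, 18276 and 5651 in controls. The short form Ldhb-202 had 0, 63 and 58 counts in the labelled libraries and 0 in each control. In knockdown replicates 2 and 3 the deposited gene estimates, 222 and 230 counts, were above the transcript sums of 63 and 67, so the Ldhb level there depends on which table is read.

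Ldha made up most of the lactate dehydrogenase RNA in every library. Per length, its share of Ldha plus Ldhb was 74.2%, 97.8% and 97.8% in the libraries labelled Jun knockdown, against 96.9%, 98.3% and 97.9% in controls. Knockdown replicates 2 and 3 lay within the control range and replicate 1 was well below it. The difference of -7.81 percentage points did not pass (exact permutation p = 0.5, two-sided) and rested on that library, since without knockdown replicate 1 it was 0.0673.

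**Figure D3:**
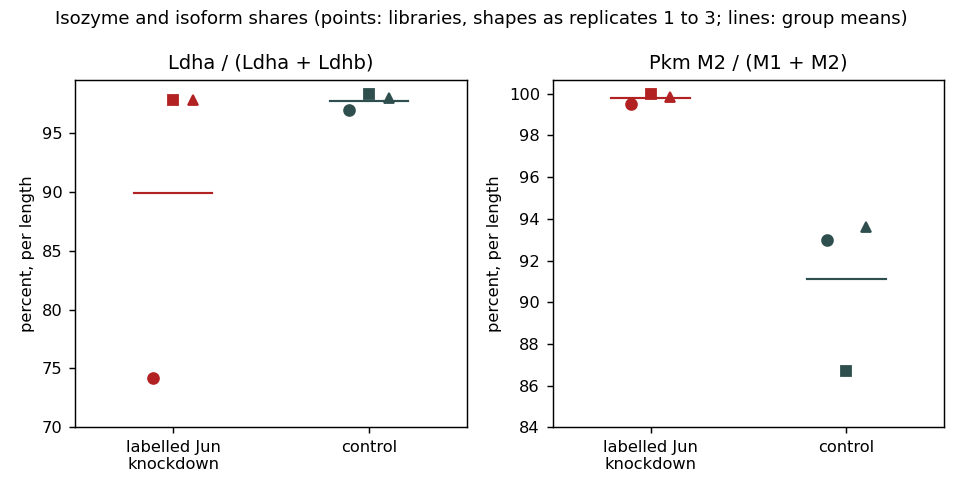
Share of Ldha in Ldha plus Ldhb (left panel) and of the M2 form in Pkm M1 plus M2 (right panel), in percent per length, for each library, with lines at group means; the axes do not start at 0. In the left panel knockdown replicate 1, at 74.2%, is apart from the other 5 libraries, and in the right panel all 3 labelled libraries, at 99.5% or above, are over all 3 controls.

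Of the lactate carriers among the 10 genes, neither was above 65.9 CPM in any library. Slc16a1 (chromosome 3, 104638668 to 104658462, plus strand), which encodes the carrier MCT1, stood at 1.23, 57.1 and 0.327 CPM in the libraries labelled Jun knockdown, against 45.5, 65.9 and 31.9 CPM in controls. Knockdown replicate 2 lay within the control range while replicates 1 and 3 were near 0, so the groups overlapped (log2 fold change -1.29, SE 1.68, adjusted p = 0.736). The fold change rested on that library, at -5.91 without knockdown replicate 2 (adjusted p = 0.166) and -0.74 or -0.75 without replicate 1 or 3. The predicted genes Gm43581 and Gm43585 overlap Slc16a1 on the same strand, so reads may be split between them. Slc16a3 (chromosome 11, 120948480 to 120960868, plus strand), which encodes MCT4, a carrier typical of lactate-exporting cells, had 0, 8 and 0 counts in the labelled libraries, against 70, 3 and 19 counts in controls. Its highest level was 1.92 CPM, and no difference was detectable at this depth (log2 fold change -2.48, SE 1.77, adjusted p = 0.513). Without knockdown replicate 2 the labelled libraries hold 0 counts and the fitted value, which then depends on the prior count, was -8.02 (adjusted p = 0.303), against -1.94 and -1.92 without replicate 1 or 3.

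Pdk1 (chromosome 2, 71873224 to 71903858, plus strand) encodes a kinase that inhibits pyruvate dehydrogenase and so limits the entry of pyruvate into mitochondria. It stood at 0.681, 0.451 and 8.50 CPM in the libraries labelled Jun knockdown, against 4.66, 7.47 and 2.99 CPM in controls. Knockdown replicate 3 was the highest of all 6 libraries and the other labelled libraries the lowest, so the groups overlapped (log2 fold change -0.65, SE 1.56, adjusted p = 0.861). Without knockdown replicate 3 the fold change was -3.17 (adjusted p = 0.489), and without any other 1 library -0.94 to -0.15. In control replicate 2 a noncoding form, Pdk1-205, had 491 counts against 194 for the coding Pdk1-201, so the gene's level there is mostly not that of its coding form. Pdk1-201 had a log2 fold change of 0.34 (SE 2.27, adjusted p = 0.963). The gene estimates in knockdown replicate 3 and control replicate 3 were 130 and 83 counts, against transcript sums of 254 and 23. Over all its forms, the mean TPM of Pdk1 was 1.62 in the labelled libraries and 2.12 in controls. The fold change was thus negative for the gene and positive only for the form Pdk1-201 taken alone, and neither passed.

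Levels of different genes were compared as TPM, in which counts are divided by transcript length and scaled to a common total. In controls the order of mean TPM was Ldha (7777), Eno1 (988), Pgk1 (779.8), Pkm (714), Pgam1 (540.3), Ldhb (196), Eno2 (77.9), Slc16a1 (13.8), Pdk1 (2.12) and Slc16a3 (0.727). Ldha was above all others in every control library, while Eno1 and Pgk1, Pgk1 and Pkm, Pkm and Pgam1, and Pdk1 and Slc16a3 overlapped as neighbours, and the other neighbours were apart. In the libraries labelled Jun knockdown the order began with Ldha (666), Pgam1 (153) and Pgk1 (146), followed by Pkm (77.1), Ldhb (69.6) and Eno1 (58.5). Eno1 thus ranked sixth by mean TPM in the labelled libraries and second in controls, with the doubt about its copies given above. Eno2 (20.1), Slc16a1 (8.22), Pdk1 (1.62) and Slc16a3 (0.132) followed in the same order as in controls. In the labelled libraries Ldha alone was apart from its neighbour, and all other neighbours overlapped.

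At the level of annotated transcripts, 78 forms of the 10 genes were in the deposited table, 60 had counts and 20 were tested. Of these, 4 were lower, Pgk1-201, Pgam1-201, Eno1-202 and Ldha-202, and 0 were higher, against 0.604% lower and 0.058% higher over all transcripts tested. Their log2 fold changes were -3.00 (adjusted p = 0.00770), -2.43 (adjusted p = 0.0403), -4.80 (adjusted p = 0.0456) and -4.20 (adjusted p = 0.00332). These are the main coding forms of their genes. Noncoding forms took 0.626%, 0.508% and 0.123% of the 10 genes' transcript counts in the libraries labelled Jun knockdown, against 0.170%, 0.0862% and 0.290% in controls. The groups overlapped (difference 0.237 percentage points, exact permutation p = 0.3, two-sided), while the retained-intron share over all protein-coding genes, given above, was higher in all 3 labelled libraries.

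Among genes next to these in the pathway, Bsg was called lower. Bsg encodes basigin, the membrane partner that MCT1 and MCT4 need to reach the cell surface, and a splice form of which is the receptor for a rod-derived cone viability factor. It stood at 3.34, 17.1 and 2.29 CPM in the libraries labelled Jun knockdown, against 365, 306 and 179 CPM in controls, with a log2 fold change of -5.22 (SE 0.98, adjusted p = 0.0409), far apart in all 6 libraries. The call held in 8 of 17 alternatives. Of the 6 that left out a library, it held in 1, without knockdown replicate 2 (adjusted p 0.0212 to 0.152 over the 6). Of the 6 other carriers and partners listed, 3 were tested, and the remaining 2 were chosen for mention after their values were seen. Slc16a7, which encodes the carrier MCT2, was at 2.79, 115 and 0.523 CPM in the labelled libraries and at 0.932, 0.178 and 0.252 CPM in controls, high in knockdown replicate 2 alone (adjusted p = 0.206). Emb, which encodes embigin, another carrier partner, was at 8.51, 9.48 and 14.3 CPM in the labelled libraries and at 0.466, 3.69 and 2.99 CPM in controls, with a log2 fold change of 2.17 (SE 1.49, adjusted p = 0.493).

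Of 8 other isozymes of the lower steps, 3 were tested and 0 passed with edgeR (0 at an unadjusted p under 0.05, and 0 with limma-voom or DESeq2). Bpgm, a bisphosphoglycerate mutase, stood at 109.9, 0.113 and 0.981 CPM in the libraries labelled Jun knockdown and at 175, 96.4 and 226 CPM in controls, with knockdown replicate 1 within the control range (adjusted p = 0.572). Eno3, the muscle enolase, and Eno4, an enolase known from sperm, had log2 fold changes of -2.58 (SE 1.52) and -1.66 (SE 2.27). Pklr, the pyruvate kinase of liver and red cells, had 0 counts in each labelled library and 8, 1 and 0 in controls. Ldhc, the lactate dehydrogenase of testis, had 0 counts in all 6 libraries, and Ldhd had 0 in each labelled library and 0, 0 and 3 in controls, so none of these was detected beyond a few counts in either group.

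Of 13 genes for pyruvate entry into mitochondria and for the pyruvate dehydrogenase complex and its regulators, 12 were tested and 0 passed with edgeR, with a median log2 fold change of -0.78. At an unadjusted p under 0.05 there were 2, against 16.8% of all genes tested. With limma-voom 0 passed, and with DESeq2 1 passed as higher, as did 798 of 12023 genes in all. Mpc1, a subunit of the mitochondrial pyruvate carrier, stood at 347, 203 and 209 CPM in the libraries labelled Jun knockdown and at 284, 196 and 377 CPM in controls, which overlap (log2 fold change -0.18, SE 0.47). Pdhb, the E1 beta subunit, was at 175, 120.4 and 316 CPM in the labelled libraries and at 983, 604 and 525 CPM in controls, with a log2 fold change of -1.79 (SE 0.48, adjusted p = 0.0980), with no overlap. Dld, the E3 subunit, differed by -0.85 (SE 0.72), with overlap.

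As given above, 1.35% of all genes were lower with edgeR, 315 of 12815 with limma-voom and 1046 of 12023 with DESeq2. Of 12 genes of glucose uptake and the upper steps, 11 were tested and 3 were lower (2 with limma-voom and 6 with DESeq2), with a median of -3.11. The 3 were Aldoa, an aldolase (log2 fold change -3.78, SE 0.27, adjusted p = 0.000543), Tpi1, triosephosphate isomerase (-3.11, SE 0.43, adjusted p = 0.0117), and Gapdh, glyceraldehyde phosphate dehydrogenase (-3.13, SE 0.38, adjusted p = 0.00720). Each of the 3 had no overlap between groups, and the calls of Tpi1 and Gapdh ended without control replicate 3 (adjusted p = 0.0719 and 0.0564), that of Tpi1 also with limma-voom (0.0521). Of 12 transcription factors and oxygen sensors that regulate glycolysis or photoreceptor genes, 10 were tested and 0 passed with edgeR (3 at an unadjusted p under 0.05, and 0 with limma-voom or DESeq2). Hif1a, the oxygen-sensitive factor that induces Ldha and Pgk1, was at 586, 641 and 605 CPM in the labelled libraries and at 537, 410.2 and 261 CPM in controls, all labelled libraries above all controls (log2 fold change 0.60, SE 0.38, adjusted p = 0.457). Crx and Otx2, photoreceptor homeodomain factors, differed by -1.56 (SE 0.43, adjusted p = 0.103) and -1.92 (SE 0.55, adjusted p = 0.115), with no overlap.

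**Figure D4:**
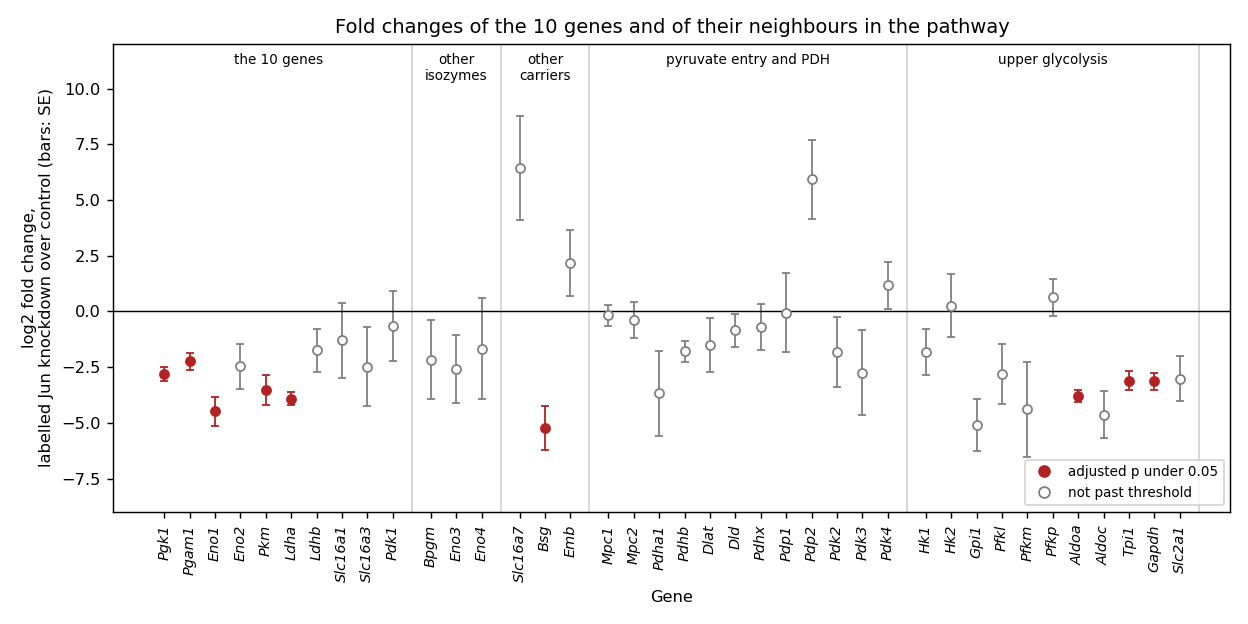
Log2 fold change of the libraries labelled Jun knockdown over controls, with standard errors, for the 10 genes and the tested genes of 4 neighbouring lists; filled red points had an adjusted p under 0.05 and open points did not. The called genes, 5 of the 10, with Bsg, Aldoa, Tpi1 and Gapdh, all lie below 0.

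Summed markers of microglia, Müller glia, cones and of vessels and blood were also lower in all 3 labelled libraries. The sums of the other cell types overlapped between the groups. The summed level of 10 microglia markers was 1.75 to 5.69 CPM in the libraries labelled Jun knockdown and 823 to 1112 CPM in controls, with 4 of 9 tested markers lower. With limma-voom 8 of the 9 microglia markers were lower, and with DESeq2 8. That of 13 Müller glia markers was 463 to 599 CPM in the labelled libraries and 1980 to 2324 CPM in controls, with 0 of 13 called by edgeR (4 at an unadjusted p under 0.05, 3 as lower with limma-voom and 4 with DESeq2). Of their fold changes, 9 were negative and 4 positive. Clu alone was at 125, 159 and 9.49 CPM in the labelled libraries and 1233, 1205 and 1160 CPM in controls. The summed level of 10 vascular and blood markers was 20.5 to 66.1 CPM in the labelled libraries and 194 to 349 CPM in controls, with 3 of 7 lower and Hba-a1 at 0 in the labelled libraries. Of the 7 tested, 6 had a negative fold change and 1 a positive one, and 5 were lower with limma-voom and 5 with DESeq2. Summed bipolar cell markers were 1158 to 1926 CPM in the labelled libraries and 1399 to 2001 CPM in controls, with 1 marker lower and 1 higher. This sum holds Otx2, also a photoreceptor factor, at 210, 88.6 and 383 CPM in the labelled libraries and 1131, 809 and 629 CPM in controls. Of the 10 fold changes, 5 were negative and 5 positive. Prkca, Grm6, Trpm1 and Pcp2 lay above all controls and Sebox and Otx2 below them, named here after their values were seen. Of these, Prkca and Sebox passed (adjusted p = 0.0468 and 0.0124, edgeR). Grm6, Trpm1, Pcp2 and Otx2 did not (adjusted p = 0.425, 0.54, 0.307 and 0.115). Over all genes tested, 12.6% lay above all controls in this way and 15.7% below. Summed cone markers were 2894 to 3485 CPM in the labelled libraries and 3562 to 7115 CPM in controls, with 1 of 10 lower. Of the 10 cone fold changes, 7 were negative and 3 positive. With DESeq2 1 cone marker was lower and 1 higher, and with limma-voom 0 passed. The lower sum is therefore not shared by all cone markers. Summed amacrine and ganglion cell markers (15.0 to 70.3 CPM in the labelled libraries and 13.4 to 92.6 CPM in controls) and pigment epithelium markers (58.2 to 198 CPM in the labelled libraries and 57.3 to 103 CPM in controls, with Best1 at 0 counts in each labelled library and 0, 0 and 1 in controls, and Mlana at 0 in each labelled library and 0, 0 and 627 in controls) overlapped. Their part in the differences of the 10 genes was not tested. With counts thinned to the smallest library total, 4 of the 5 calls held, and Pkm had an adjusted p of 0.0575.

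**Figure D5:**
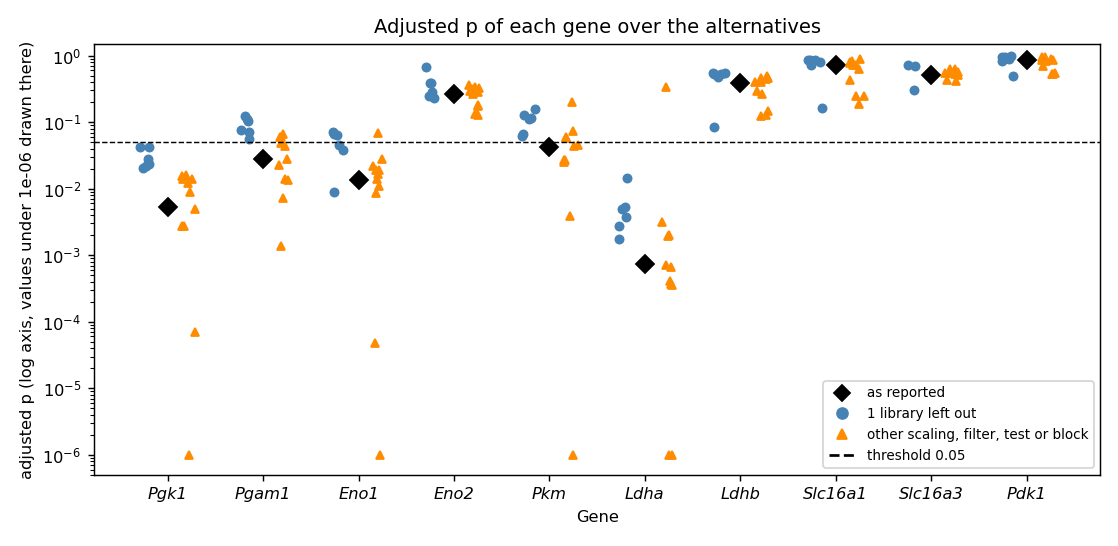
Adjusted p of each of the 10 genes on a log axis, as reported (black), with 1 library left out (blue) and under other scalings, filters, tests or the replicate block (orange), with the threshold of 0.05 as a dashed line. Pgk1 lies below the line in every alternative and Ldha in all but limma-voom, while every blue point of Pgam1 and Pkm lies above it.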

How the data were processed

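RNA of 6 libraries of sorted mouse rods was compared, 3 labelled Jun knockdown and 3 controls, grouped by the labels. Per the labels' protocols, full-length cDNA came from a SMART-seq v4 kit and libraries from a Nextera XT kit, with no step that marks strand, so sense and antisense reads were not separated. The submitters' processing notes name Trimmomatic 0.39, kallisto 0.44.0 and edgeR 3.28.1. Those notes name no genome build (not given in the sources used here). Estimated counts per gene and per transcript were deposited by the authors, and were rounded before count tests. Gene estimates were not transcript sums: 6.62% of values with sums over 50 counts lay within 1% of it. The third table deposited by the authors, a normalised signal, summed to 1250540 to 2385208 per library and was used only as an alternative. Of 52143 genes, 51336 were found in GENCODE, and 98.2% of those had the same GRCm38 coordinates. No sample column was left unmapped (0 columns).

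The quasi-likelihood test of edgeR 4.0.16 (R 4.3.3) was run on group alone after TMM scaling and the filterByExpr filter. P-values were adjusted by Benjamini-Hochberg over 12815 genes, with a threshold of 0.05; transcripts were tested likewise over 20706. Each standard error is the log2 fold change over the square root of F. Called, lower and passed refer to this threshold. TPM used annotated transcript lengths, which cover 98.89% of counts, and shares were compared by exact permutation tests, two-sided, in which 3 against 3 libraries cannot go below 0.1. Near copies were coding matches of at least 95% identity over 80% of the length (blastn 2.17.0). The alternatives used DESeq2 1.42.0 and limma 3.58.1 besides edgeR. Functions were tested on simulated counts. The 10 genes, the lists and the tests were chosen with earlier results of these data known. Named were the 10 genes, the members of each pathway list past the threshold or else the 3 with the highest mean CPM, Jun, 3 rod markers (given here only within their list; 1 is not reported here), near copies, member transcripts with at least 10% of their gene in 1 group, and the 5 tested genes nearest the mean profile with at least 5 CPM in 1 group.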

Additional observations from a re-analysis of the deposited data

How the results depend on the processing

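All gene-level fold changes of the 10 genes stayed negative in every alternative that could be fitted (12 for Slc16a3 and 17 for each other gene). Among their tested transcripts, the coding forms Pdk1-201 and Ldha-214 had positive values, 0.34 (SE 2.27) and 4.36 (SE 2.64), neither past the threshold. Of the fold changes of single named genes over the alternatives, 211 kept their direction and their side of the threshold and 40 lost the call. Some of those 211 never passed, and their size moved widely, as given in the report for Slc16a1, Slc16a3, Ldhb, Eno2 and Pdk1. The 5 calls among the 10 genes became 3 with upper quartile scaling, 3 with library totals, 2 with limma-voom and 2 to 3 with 1 library left out: 2 without control replicate 1, 2 or 3 and 3 without any 1 labelled library. Those 2 scalings also moved the median of all genes, -0.12 as reported, to 0.27 and 0.38, and the median of the 10 genes to -2.03 and -1.85. The 4 transcripts called became 7 with no filter, 9 with DESeq2 and 1 to 3 with 1 library left out. The shares of all transcripts called under those settings are not given here, so these counts cannot be read against the 4. Genes called over the whole table were 214 (173 lower and 41 higher), 737 with no filter, 1844 with DESeq2 (1046 lower and 798 higher), 442 with limma-voom, 615 and 553 with limma-trend on the deposited values at pseudocounts of 0.5 and 2, 97 with the replicate block and 36 to 110 with 1 library left out. The split turned to 89 lower and 55 higher with upper quartile scaling, 79 and 68 with library totals and 101 and 44 with thinned counts. The difference in the Ldha share was 0.0673 percentage points without knockdown replicate 1, and -11.7 to 0.0673 over the libraries left out. The cause of these moves was not tested.

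Same-numbered libraries did not deviate together (correlations 0.0004, 0.0080 and -0.0151), so no pairing by number was seen. The labels do not say whether such libraries shared a litter or sort, and this check cannot exclude it. With the replicate block, 4 of the 10 genes and 4 transcripts were called, and Pgam1 lost its call (adjusted p = 0.0592). For the Pkm share, the comparison of coding forms with all forms was not run, since 1 transcript holds each exon. With 3 libraries a group, differences of Slc16a1, Slc16a3 and Pdk1 were not detectable, and their standard errors were large (1.68, 1.77 and 1.56). Slc16a3 and Pdk1 stood at 8.50 CPM or less in every library. For Slc16a1 the labelled libraries disagreed, with 18, 1012 and 5 counts.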
